A study of Homo sapiens with 32 samples.

Results

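The genes SPX, TAC3, LACRT, CCR9, LINGO4, ZNF853, OTOP2 and ALOX15, 8 of 19970 protein-coding genes, were selected from those with more H3K27me3 island coverage in MDA-MB-231 cells given a p38 inhibitor. They were chosen from the coverage itself, among 4104 genes that could be tested, and are not all the genes that were higher. In a fit of the whole gene table, 7 of them lay above control with the p38 inhibitor alone, and OTOP2 passed only when all libraries with the p38 inhibitor were set against all without it, a contrast called the p38 main effect below. That same main effect also took in SPX, LINGO4, ZNF853 and ALOX15. The values of P38i against control are therefore a description and carry no test here.

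MDA-MB-231 is an established triple-negative breast cancer line with a mesenchymal character. Its cells received both inhibitors (combo), the p38 inhibitor alone (P38i) or the EZH2 inhibitor alone (EPZ) for 24 h, or neither (control). H3K27me3 ChIPmentation, in which chromatin is tagmented on the beads, gave 4 libraries per group, 16 in all, and a list of enriched regions, here called islands, was used for each. The 16 IgG libraries were not used here. The labels do not tell whether replicates were separate cultures, so p-values measure only the spread between libraries, part of which may be technical. All results come from 1 cell line, and a larger share of cells with the mark cannot be told apart from more of the mark per cell.

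H3K27me3, trimethylation of lysine 27 on histone H3, is written by EZH2 within Polycomb repressive complex 2 and is typical of silent genes. p38 MAP kinases are stress-activated kinases, and p38 can phosphorylate EZH2. The 8 genes share no pathway: spexin (SPX) and neurokinin B (TAC3) are secreted neuropeptides, lacritin (LACRT) is a secreted glycoprotein of tears, CCR9 is a chemokine receptor, LINGO4 is a leucine-rich repeat membrane protein, OTOP2 is a proton channel, ALOX15 is a lipoxygenase, and ZNF853 is a zinc finger protein.

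Coverage is the percent of a gene and 2.5 kb on each side that lay in islands, so it is already per length. The files list island bounds on GRCh38 and no scores, counts or depths, so each value says how much was called and not how strong the mark was. Libraries held 53290 to 85194 islands that covered 474 to 674 Mb. Covered length averaged 565 ± 43.2 Mb in combo, 620 ± 61.4 Mb in P38i, 527 ± 56.4 Mb in EPZ and 589 ± 78.0 Mb in control (SD, n = 4 each). P38i lists were thus the longest on average, but P38i replicate 4 covered 533 Mb, less than control replicates 1, 2 and 3 with 669, 619 and 586 Mb. Over genes tied to the line's identity, no island touched VIM, CD44, ERBB2, EPCAM, CDH1 or GATA3 in any library, while mean coverage over the 16 libraries was 95.4% for PGR, 56.6% for FOXA1 and 10.2% for ESR1. Islands do not measure expression, so the absence of islands over the epithelial genes EPCAM and CDH1 does not speak to whether they are on.

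All 8 genes had islands in every P38i library, as did 89.8% of tested genes. In EPZ 5 of them (SPX, LINGO4, ZNF853, OTOP2 and ALOX15) had none in any library. The share of tested genes without islands in EPZ was not counted. Low EPZ values were part of the p38 main effect, which took in the same 5 genes. In P38i against control, 12 of 4104 tested genes were called higher (0.292%), 7 of the 8 among them. For each of the 8 all P38i libraries lay above all controls, which was so for 3.24% of tested genes. In the p38 main effect 5 genes were called higher (0.122%), and all 5 belong to the 8. These counts follow from how the genes were chosen, and they lean on the spread shared by all 4 groups: fitted on the P38i and control libraries alone, none of the 4104 genes was called (349 at an unadjusted p under 0.05 in limma). Leaving out 1 library at a time gave 5 to 31 calls, the fewest without P38i replicate 3 and the most without control replicate 1. The last of the 12 was ANKRD35, at 21.7% ± 5.35 in P38i and 3.5% ± 7 in control (SD, n = 4), and the nearest gene outside was MATN4, at 19.3% ± 7.1 in P38i and 0 in every control library. All 8 passed the filter on mean coverage of 5 to 95%, but SPX, TAC3, LINGO4, ZNF853 and ALOX15 did so only through P38i. Without the P38i libraries the mean of each of these genes lay below 5%. ZNF853 had a mean of 6.12% over the 16 libraries, just above the floor, and ALOX15 one of 7.64%.

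**Figure D1:**
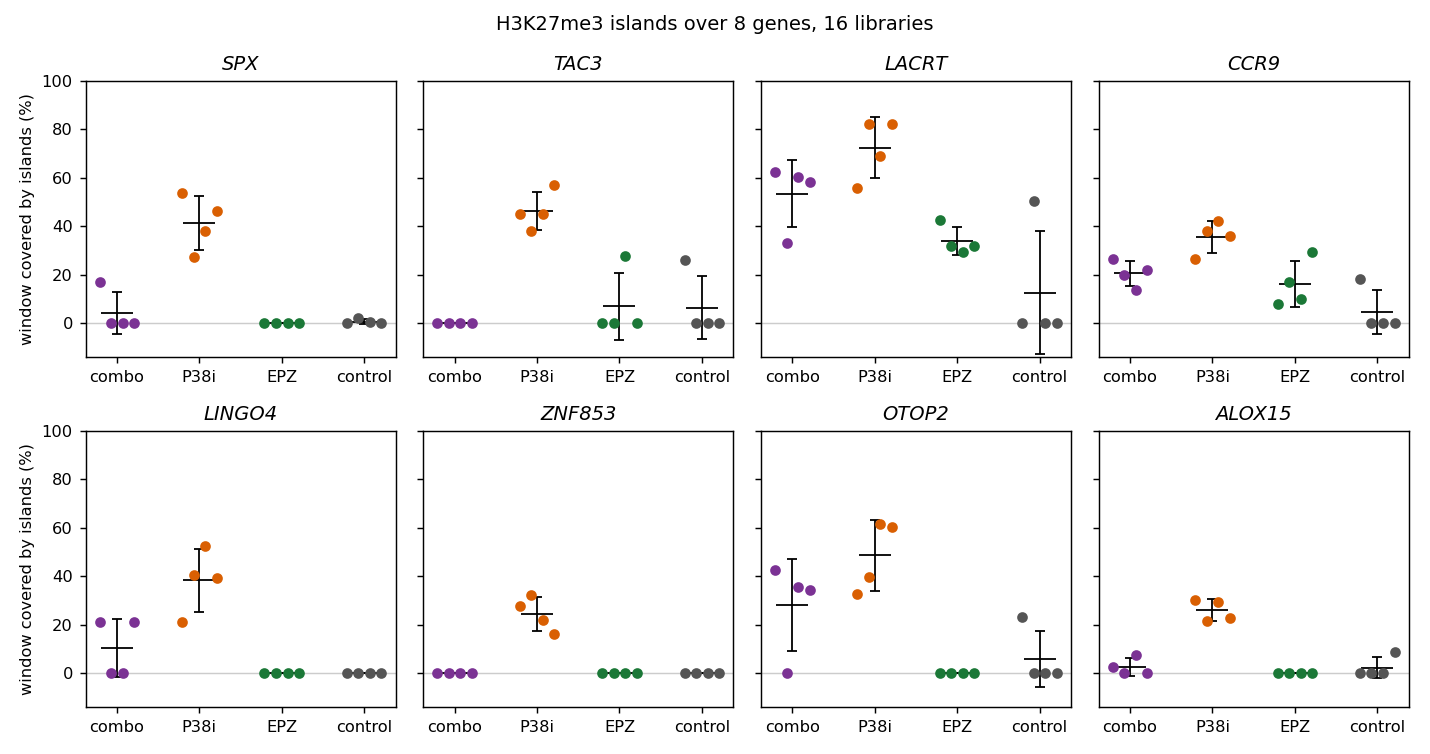
Percent of each gene window (gene plus flanks) covered by H3K27me3 islands, 1 point per library (y axis, %), by treatment (x axis), with the mean as a horizontal bar and the SD of 4 libraries as whiskers. All P38i points lie above all control points for each of the 8 genes, while combo points lie at or near 0 for TAC3, ZNF853 and ALOX15 and between 33.0% and 62.6% for LACRT.

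Among the secreted ligands, SPX encodes spexin, a peptide that acts on galanin receptors. SPX lies on chromosome 12 (21526296 to 21532947). Its coverage was 17.2% in combo replicate 1 and 0 in the other 3 combo libraries, 53.6, 27.5, 38.2 and 46.3% in P38i replicates 1 to 4, 0 in all 4 EPZ libraries, and 0, 2.12, 0.403 and 0% in control replicates 1 to 4. The P38i libraries stood clear of all 12 others. The islands of combo replicate 1 and of control replicates 2 and 3 lay 0.453, 2.25 and 2.45 kb beyond the gene, whereas in every P38i library an island lay inside the gene. The islands of the 4 P38i libraries shared 800 bp (21531001 to 21531800), and no library of combo, EPZ or control had an island there.

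The SPX start site listed by RefSeq lies inside the gene span, on the plus strand, and its promoter is CpG-rich. In P38i replicates 1, 2, 3 and 4 the first island began 0.249, 0.649, 3.05 and 1.65 kb downstream of that start, so the promoter itself (250 bases before to 50 after the start) was outside the islands in all of them. It is printed here with TAC3, LINGO4 and ZNF853 as 2 CpG-rich and 2 CpG-poor examples, picked after their values were seen, of genes with few or no islands outside P38i. Sequences are from RefSeq on GRCh38.p14, 5′ to 3′ in the direction of transcription, with each CpG dinucleotide in capitals.
SPX, chr12:21527702-21528001, plus strand: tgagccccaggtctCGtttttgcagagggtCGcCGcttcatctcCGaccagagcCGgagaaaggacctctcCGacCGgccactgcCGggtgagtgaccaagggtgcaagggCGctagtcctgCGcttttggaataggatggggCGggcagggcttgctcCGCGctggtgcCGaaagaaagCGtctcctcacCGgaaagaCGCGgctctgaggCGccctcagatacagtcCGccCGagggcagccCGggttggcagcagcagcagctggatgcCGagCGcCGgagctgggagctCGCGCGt
TAC3, chr12:57016480-57016779, minus strand: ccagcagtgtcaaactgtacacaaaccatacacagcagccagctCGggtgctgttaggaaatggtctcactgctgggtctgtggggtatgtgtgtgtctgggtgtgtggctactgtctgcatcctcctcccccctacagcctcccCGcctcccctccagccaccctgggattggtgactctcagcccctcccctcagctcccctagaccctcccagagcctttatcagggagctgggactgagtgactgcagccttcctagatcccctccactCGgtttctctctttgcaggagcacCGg
LINGO4, chr1:151805370-151805669, minus strand: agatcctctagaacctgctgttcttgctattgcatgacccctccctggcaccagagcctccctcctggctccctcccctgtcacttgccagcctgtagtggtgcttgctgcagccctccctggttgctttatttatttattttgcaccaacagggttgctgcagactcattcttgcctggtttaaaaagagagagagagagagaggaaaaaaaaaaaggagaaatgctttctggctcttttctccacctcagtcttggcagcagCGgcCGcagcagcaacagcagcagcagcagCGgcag
ZNF853, chr7:6615360-6615659, plus strand: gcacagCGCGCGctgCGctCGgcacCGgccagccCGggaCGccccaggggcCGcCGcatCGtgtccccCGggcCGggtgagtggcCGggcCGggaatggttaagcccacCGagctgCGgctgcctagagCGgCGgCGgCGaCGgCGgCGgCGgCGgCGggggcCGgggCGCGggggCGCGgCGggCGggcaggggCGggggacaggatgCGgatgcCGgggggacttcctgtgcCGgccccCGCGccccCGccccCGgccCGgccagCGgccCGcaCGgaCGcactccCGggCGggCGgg

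These 4 promoters are not alike in base composition. ZNF853 had 50 CpG dinucleotides and 84.3% G+C, more CpG than 98.4% of 22131 promoters of protein-coding genes, and SPX had 28 CpG and 66.3% G+C. TAC3 had 4 CpG and LINGO4 had 3, against a median of 21 in all promoters. Promoters were also listed for LACRT, with 1 CpG, for OTOP2, with 20, and for CCR9 at 2 start sites, with 4 and 6, so 7 of the 8 genes matched and ALOX15 did not. The AP-1 motif TGANTCA (any base at N, both strands) was found in none of the 8 listed promoters and in 6.15% of all promoters, and the cAMP response element TGACGTCA was found in none of the 8 and in 2.26% of all. TATAAA, on either strand, was found at OTOP2 and at 1 CCR9 start and in 9.46% of all promoters. These letters describe the 300-base windows only.

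Islands reached the TAC3 promoter in 3 P38i libraries and no other library, and the LINGO4 promoter in 2 P38i libraries and no other. No island in any library touched the SPX or ZNF853 promoter. Over all 22131 promoters, 6.66 to 10.0% were touched per library. Within 2.5 kb of the start, an island was present for TAC3 in no combo library, 4 P38i libraries, 1 EPZ library and 1 control library, and for LINGO4 in 2 combo, 4 P38i, 0 EPZ and 0 control libraries. For ZNF853 the counts were 0, 3, 0 and 0 in the same order, and for SPX 0, 3, 0 and 0. Near the OTOP2 and LACRT starts islands were present in 4 P38i libraries each, but also in 3 and 4 combo libraries. LACRT had them in 2 EPZ libraries and 1 control library as well. For CCR9 the counts, in the same order, were 0, 1, 0 and 0 at the first start and 0, 2, 3 and 1 at the second. The LACRT promoter was touched in 2 combo libraries and 1 P38i library, and the OTOP2 promoter in 1 combo library. At CCR9 the first promoter was touched in 1 P38i library. The second was touched in 2 P38i libraries, 1 EPZ library and 1 control library.

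TAC3 encodes the precursor of neurokinin B, a tachykinin that acts on the receptor TACR3 and takes part in the control of gonadotropin release. It lies on chromosome 12 (57010000 to 57016529). No combo library had an island in the window. Coverage was 45.1, 38.2, 45.1 and 57.2% in P38i replicates 1 to 4. It was 27.8% in EPZ replicate 3 and 26.0% in control replicate 1, and 0 in the other 3 libraries of each of these groups. Even these 2 lay below the lowest P38i library. The P38i islands were 4.4 to 6.60 kb wide, lay between -1.07 and 5.73 kb from the start (negative upstream), and shared 3400 bp (57012601 to 57016000), which the EPZ and control islands overlapped.

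LACRT encodes lacritin, which promotes tear secretion and is made mainly by the lacrimal gland. It lies on chromosome 12 (54630811 to 54634895), in a stretch rich in islands. Coverage was 62.6, 33.0, 60.4 and 58.2% in combo replicates 1 to 4 and 56.0, 82.4, 69.2 and 82.4% in P38i replicates 1 to 4. It was 42.8, 31.8, 29.6 and 31.8% in EPZ replicates 1 to 4, and 50.6% in control replicate 2 with 0 in the other 3 controls. Combo and P38i overlapped, and so did combo and EPZ. Control replicate 2 lay above all EPZ libraries and above combo replicate 2, so LACRT is the gene where a control came closest to the P38i range.

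CCR9, the receptor for the chemokine CCL25, guides lymphocytes to the gut and the thymus. It lies on chromosome 3 (45886064 to 45903174). Coverage was 26.6, 19.9, 13.9 and 22.0% in combo replicates 1 to 4, 26.6, 38, 42.1 and 36.2% in P38i, and 8.14, 17.2, 9.95 and 29.3% in EPZ. Control replicate 1 had 18.1% and the other 3 controls had 0. P38i replicate 1 equalled combo replicate 1 and lay below EPZ replicate 4, so both of these groups met the P38i range. Islands fell mainly at 2 places. The control island lay 4.86 to 8.86 kb downstream of the first listed start, and EPZ replicates 1, 2 and 3 and P38i replicates 2 and 4 had islands that overlapped it. All 4 combo and all 4 P38i libraries, with EPZ replicates 2 and 4, had an island at the far end of the gene, where no control had one.

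LACRT and CCR9 had an island in all 12 libraries that received any inhibitor and in 1 of 4 controls. Only these 2 of the 4104 tested genes (0.0487%) had islands in all 12 inhibitor libraries and none in at least 3 controls. This pattern was noticed after the values were seen, and the low controls in it were part of the choice of the genes.

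LINGO4 belongs to a family whose founding member, LINGO1, takes part in the inhibition of axon growth and myelination. It lies on chromosome 1 (151800264 to 151805419). Coverage was 20.9% in combo replicates 1 and 4 and 0 in combo replicates 2 and 3, and 20.9, 40.6, 52.4 and 39.4% in P38i replicates 1 to 4. All EPZ and control libraries were at 0. P38i replicate 1 had the same coverage as the 2 marked combo libraries, and in all 3 the island ended at -0.382 kb from the start, upstream of the gene. In P38i replicates 2, 3 and 4 islands also lay inside the gene, up to 2.82 kb downstream of the start.

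OTOP2, a member of the otopetrin proton channels, lies on chromosome 17 (74924273 to 74933912) next to its relative OTOP3. Coverage was 42.4, 0, 35.5 and 34.2% in combo replicates 1 to 4 and 32.8, 39.6, 61.6 and 60.1% in P38i replicates 1 to 4. All EPZ libraries were at 0, and control replicate 1 had 23.2% with the other 3 controls at 0. Combo replicates 1, 3 and 4 lay within the P38i range. The 4 P38i libraries shared 3600 bp (74925201 to 74928800), where 3 combo libraries and no EPZ or control library had an island. The control island lay further along the gene.

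ALOX15, an enzyme that oxygenates arachidonic and linoleic acid, lies on chromosome 17 (4630919 to 4641678). Coverage was 2.40, 0, 7.47 and 0% in combo replicates 1 to 4 and 30.3, 21.4, 29.2 and 22.7% in P38i. All EPZ libraries were at 0, and control replicate 4 had 8.74% with the other 3 controls at 0. P38i stood clear of the 12 others. The islands of combo and control touched only the flank at the high-coordinate end, 1.12 to 2.12 kb beyond the gene, while each P38i library had an island inside the gene, between 4633001 and 4637600. P38i replicates 1, 2 and 4 also had an island at the high-coordinate end, which made up part of their coverage. No base of the window was covered in all 4 P38i libraries. Islands of P38i replicates 1, 2 and 3 overlapped inside the gene, as did those of P38i replicates 3 and 4.

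ZNF853, a C2H2 zinc finger protein of little known function, lies on chromosome 7 (6615610 to 6624290). It had no island in any combo, EPZ or control library, and 27.8, 32.2, 21.9 and 16.1% in P38i replicates 1 to 4. Of the 4104 tested genes it was the only one (0.0244%) with an island in every P38i library and in none of the 12 others. The filter bears on this count, since a gene at 0 in the 12 others enters the fit only with a P38i mean of at least 20%, and over all 19970 genes 3 had the pattern. The P38i islands were 2.20 to 4.4 kb wide, began 1.19 to 2.59 kb downstream of the start, and shared 2200 bp (6618201 to 6620400). They stood alone: the 50 kb on each side were free of islands in all P38i and control libraries, and the island nearest to the gene was 48.3 to 89.3 kb away in combo, 48.1 to 215 kb in EPZ and 88.5 to 394 kb in control.

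Islands touching the 8 windows numbered 19 in combo, 50 in P38i, 12 in EPZ and 7 in control. The same windows and libraries chose the genes, so the larger number in P38i follows from the choice and is a description only. Such numbers were not counted over all tested genes. The median width of the touching islands was 4.4 kb in combo, 4.4 kb in P38i, 2.70 kb in EPZ and 3.40 kb in control. Ranked by width among the islands of their own library, their median percentile was 43.5 in combo, 31.8 in P38i, 16.1 in EPZ and 17.1 in control. When each list was shortened to its widest islands until all lists covered the same length, only LACRT, CCR9 and OTOP2 had enough coverage left to be fitted, and none of the 3 was called in P38i against control.

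The comparison of combo with EPZ asked whether the p38 inhibitor did the same in cells that also received the EZH2 inhibitor. It uses none of the libraries of P38i against control, where 7 of the genes were chosen, but it is not fully separate from the choice: combo and EPZ libraries entered the mean that filtered the genes and the pooled spread. OTOP2 was chosen with these libraries in view. The p38 main effect, which uses them too, also took in SPX, LINGO4, ZNF853 and ALOX15, which favours a higher combo for these genes. ZNF853, at 0 in every library of both groups, could not pass. SPX, TAC3, LINGO4 and ALOX15, like ZNF853, entered the fit only through their P38i values, which limited how far combo could lie above EPZ. None of the 8 passed, and none had all combo libraries above all EPZ libraries (2.8% of tested genes did). Likewise, none of the 4104 tested genes was called by limma in either direction (0% higher and 0% lower), with 224 at an unadjusted p under 0.05. LACRT averaged 53.5% ± 13.8 in combo and 34.0% ± 5.95 in EPZ, a difference of 19.6 ± 10.7 points (SE, limma adjusted p = 0.883). LINGO4 averaged 10.4% ± 12 in combo against 0 in every EPZ library (limma adjusted p = 0.883), and CCR9 20.6% ± 5.26 in combo and 16.1% ± 9.59 in EPZ (limma adjusted p = 0.905).

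SPX averaged 4.29% ± 8.58 in combo, with 1 library above 0, and 0 in EPZ, a difference of 4.29 ± 4.86 points (SE, limma adjusted p = 0.899). TAC3 stood at 0 in combo and 6.94% ± 13.9 in EPZ (limma adjusted p = 0.890), ALOX15 at 2.47% ± 3.52 in combo and 0 in EPZ (limma adjusted p = 0.899), and ZNF853 at 0 in both. OTOP2 averaged 28.0% ± 19.0 in combo, with replicate 2 at 0, and 0 in EPZ (difference 28.0 ± 8.86 points, limma adjusted p = 0.701). Of the 8, 6 were higher in combo, with a median difference of 4.38 points, where 72.8% of all tested genes were higher and the median was 3.02 points. These figures include SPX, TAC3, LINGO4, ZNF853 and ALOX15, which entered the fit only through P38i, so nothing is read from them. None of the 8 was called under any of the alternatives in which it could be fitted, where the limma adjusted p ranged between 0.238, for OTOP2 without combo replicate 2, and 1. A p that misses the threshold does not show that combo and EPZ were alike.

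**Figure D2:**
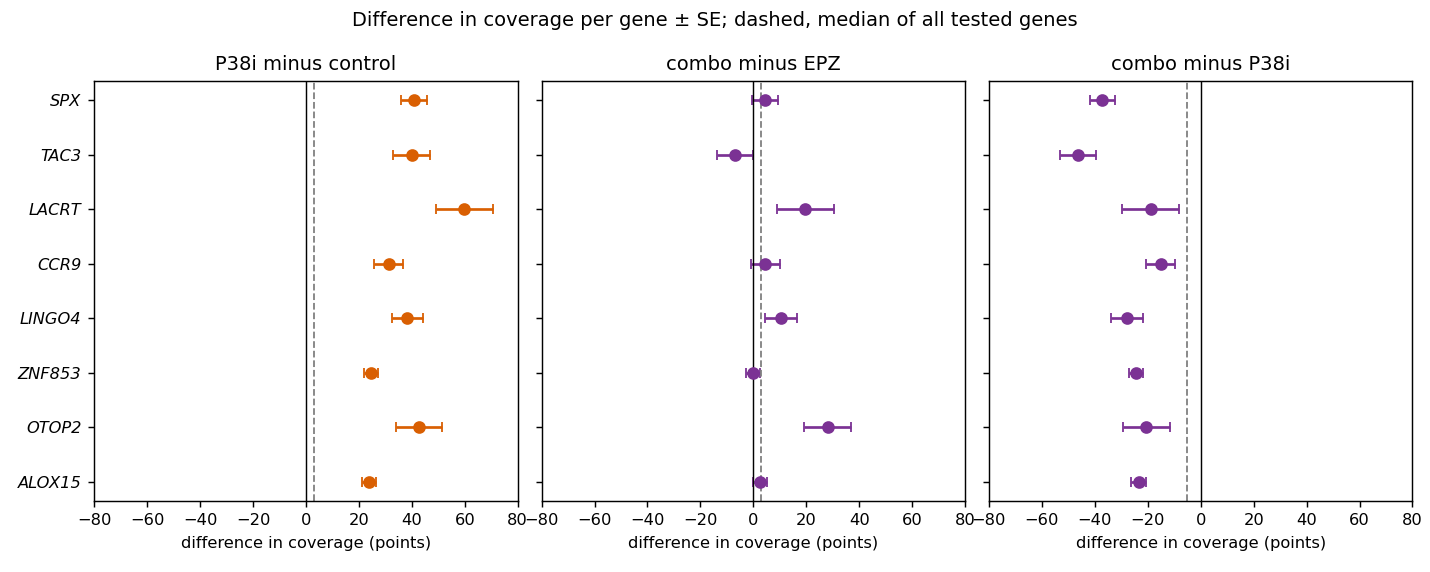
Difference in coverage for each of the 8 genes (x axis, percentage points) ± SE from the fit of 16 libraries, for P38i minus control, combo minus EPZ and combo minus P38i, with the median of all 4104 tested genes as a dashed line. P38i minus control lies between 23.7 and 59.8 points by choice of the genes, combo minus EPZ between -6.94 and 28.0 points, and combo minus P38i below 0 for all 8.

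Set against P38i, combo was lower for all 8 genes, by a median of -24.0 points against -5.14 points over all tested genes. Every combo library lay below every P38i library for SPX, TAC3, ZNF853 and ALOX15, 4 of the 8, and for 10% of tested genes. TAC3 differed by -46.4 ± 6.90 points and SPX by -37.1 ± 4.86 points (SE). LINGO4, ZNF853 and ALOX15 differed by -27.9 ± 5.96, -24.5 ± 2.64 and -23.4 ± 2.73 points. For OTOP2, LACRT and CCR9 the differences were -20.5 ± 8.86, -18.9 ± 10.7 and -15.1 ± 5.48 points, and the groups overlapped.

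In the fit over all genes 76 of 4104 were called lower in combo (1.85%) and 3 higher (0.0731%), and SPX, TAC3, LINGO4, ZNF853 and ALOX15 were among the 76. Leaving out 1 library at a time gave 16 calls without P38i replicate 3 and 231 without P38i replicate 4, with 3 to 5 of the 8 among the lower ones in any such fit. High P38i values were part of the choice of these genes, which favours a lower combo, so this count is a description and nothing is read from it. The same holds for the EZH2 inhibitor main effect, combo and EPZ against P38i and control, where 642 genes were called lower (15.6%), the same 5 genes among them, and for the interaction of the inhibitors, where ZNF853 was 1 of 2 genes called lower (0.0487%). The P38i libraries that chose the genes are part of these contrasts too. Values from combo against control share the control libraries with the choice. Beside each other, combo and control averaged 53.5% ± 13.8 and 12.7% ± 25.3 for LACRT, 28.0% ± 19.0 and 5.81% ± 11.6 for OTOP2, 20.6% ± 5.26 and 4.52% ± 9.05 for CCR9, 10.4% ± 12 and 0% for LINGO4 and 4.29% ± 8.58 and 0.631% ± 1.01 for SPX. ALOX15 averaged 2.47% ± 3.52 in combo and 2.19% ± 4.37 in control, ZNF853 0 in both, and TAC3 0 in combo and 6.5% ± 13 in control.

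Grouped after their values were seen, the genes fell into 3 kinds by their levels in combo. TAC3, ZNF853, SPX and ALOX15 had 0 to 17.2% in combo, each below all of its P38i libraries. LACRT, CCR9 and OTOP2 had islands in at least 3 of 4 combo libraries, and how many of all tested genes did so was not counted. LINGO4 lay between, with 2 of 4. Over all tested genes, 53 (1.29%) had islands in all 4 P38i libraries and none in at least 3 combo libraries, SPX, TAC3 and ZNF853 among them. With covered length as a covariate, combo minus P38i lay between -43.9 points for TAC3 and -12.7 points for CCR9, and P38i minus control between 23.8 points for ALOX15 and 59.7 points for LACRT. P38i replicate 4, the shortest P38i list, had 46.3% of SPX, 57.2% of TAC3, 82.4% of LACRT, 36.2% of CCR9, 39.4% of LINGO4, 16.1% of ZNF853, 60.1% of OTOP2 and 22.7% of ALOX15 covered. It was the highest or joint highest P38i library for TAC3 and LACRT and the lowest for ZNF853. Control replicate 1, the second longest list of all, had 26.0% of TAC3, 18.1% of CCR9 and 23.2% of OTOP2 covered and 0% of the other 5.

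The surroundings of the genes were looked at in the 50 kb on each side beyond the windows, which the choice did not use, although they are from the same libraries and neighbouring bases are not independent. For OTOP2 the flanks were 18.8, 2.8, 14.2 and 11.8% covered in combo replicates 1 to 4, 23, 26.6, 33.0 and 15.8% in P38i, 3.8, 8.8, 9 and 3.4% in EPZ and 5.6, 4.2, 0 and 10.8% in control. All P38i libraries lay above all EPZ and control libraries, which was so for the flanks of 1.95% of tested genes, OTOP2 and ALOX15 the only ones of the 8 among them. For ALOX15 the flanks were 2.6 to 15.8% covered in combo, 11 to 25.6% in P38i, 0 to 7.4% in EPZ and 0 to 6.8% in control. TAC3 flanks averaged 8.98% ± 2.78 in combo, 19.8% ± 6.89 in P38i, 10.3% ± 3.36 in EPZ and 9.58% ± 4.28 in control, with overlap.

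SPX flanks did not follow its window. They were 0 to 8.65% covered in combo, 9.8 to 13.8% in P38i, 2 to 5.8% in EPZ and 7.2 to 17.4% in control. CCR9 flanks averaged 28.1 to 33.5% in the 4 groups, and LACRT flanks 48.5 to 68.3%. LINGO4 flanks were at or under 3.92% in every library. At ZNF853 and LINGO4 the P38i islands stood nearly alone.

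**Figure D3:**
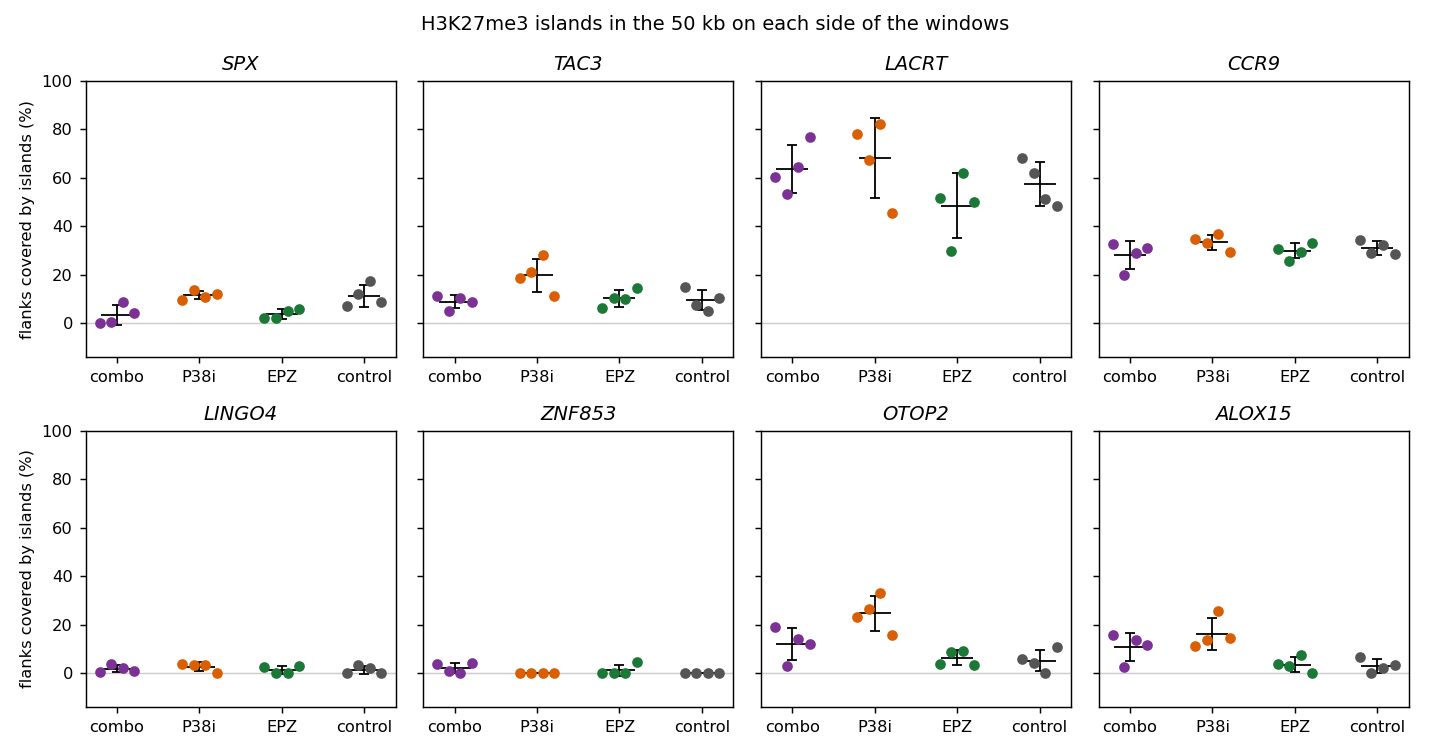
Percent of the 50 kb on each side of the gene windows covered by islands, 1 point per library (y axis, %), by treatment (x axis), with mean and SD of 4 libraries. For OTOP2 and ALOX15 the P38i points lie above all EPZ and control points, while for ZNF853 P38i and control are at 0 and for SPX P38i and control overlap.

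Within 50 kb lay 27 other protein-coding genes, of which 15 had no island in any library, among them CXCR6 beside CCR9, ZNF316 beside ZNF853 and GOLT1B beside SPX. Of the 8 that could be fitted, none was called in P38i against control (6 at an unadjusted p under 0.05 in limma, against 416 of the 4104 tested genes). All 8 were higher in P38i, by a median of 15.2 points against 2.89 points for all tested genes, of which 70.8% were higher. With covered length as a covariate 7 of 8 were higher, by a median of 14.3 points against 0.935 points. The windows of GYS2, LZTFL1 and OTOP3 overlap those of SPX, CCR9 and OTOP2, so part of this repeats the values that chose the genes. OTOP3, which shares islands with OTOP2 since their windows overlap, averaged 37.8% ± 23.9 in P38i and 2.47% ± 4.95 in control (limma adjusted p = 0.244). MYO1A, an intestinal myosin 12 kb from TAC3, averaged 44.1% ± 13.4 in P38i and 21.5% ± 8.88 in control (limma adjusted p = 0.246). None of the 8 was called in combo against EPZ (1 at an unadjusted p under 0.05).

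GYS2, the liver glycogen synthase, whose span overlaps that of SPX, was the 1 neighbour called in combo against P38i. It averaged 6.99% ± 6.35 in combo and 25.4% ± 2.49 in P38i (limma adjusted p = 0.0364), a call not made with covered length as a covariate, and its window holds some of the islands that chose SPX. USH1G, beside OTOP2, had islands in combo and P38i libraries and none in EPZ or control. Its mean over the 16 libraries, 3.75%, was below the filter.

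Relatives and partners of the 8 genes, 52 in a list of ligands, receptors, family members and p38 pathway genes, showed no call. Of the 52, 33 had no island in any library and 15 could be fitted. In P38i against control all 15 were higher, by a median of 7.47 points against 2.89 points for all tested genes. Of the 15, 5 had an unadjusted p under 0.05 in limma. Of all tested genes 70.8% were higher and 416 of 4104 had such a p. Adding covered length as a covariate left 10 of 15 higher in this comparison, by a median of 3.55 points against 0.935 points. In combo against EPZ 12 were higher and 3 lower, with a median of 5.99 against 3.02 points and 3 at an unadjusted p under 0.05. In combo against P38i 13 were lower, as were 76.6% of all tested genes, with a median of -9.19 against -5.14 points and 6 at an unadjusted p under 0.05.

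For spexin, the receptor genes GALR2 and GALR3 were without islands, and galanin (GAL) averaged 44.8% ± 20 in P38i and 12.7% ± 15.3 in control (limma adjusted p = 0.308). Galanin-like peptide (GALP) averaged 49.5% ± 9.59 in P38i and 36.2% ± 29.1 in control (limma adjusted p = 0.859). Among tachykinin genes, TAC1, the substance P precursor, was covered to 86.6% ± 7.01 in P38i and 83.9% ± 6.02 in control. TACR3, the neurokinin B receptor, stood at 12.6% ± 4.21 in P38i and 10.9% ± 7.81 in control, and TACR1, the substance P receptor, at 35.0% ± 2.22 in P38i and 34.9% ± 10.9 in control.

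CCL25, the ligand of CCR9, had no island, and of the other chemokine receptors listed CCR7 had a mean of 16.3% ± 3.83 in P38i and 6.46% ± 5.68 in control (limma adjusted p = 0.354). LINGO1 averaged 48.8% ± 8.09 in P38i and 30.9% ± 10.9 in control (limma adjusted p = 0.423). OTOP1 averaged 50.2% ± 7.34 in combo and 66.7% ± 5.03 in P38i, the lowest adjusted p of the list in that comparison (limma adjusted p = 0.0953). Among the lipoxygenases, ALOX5 was covered to 46.7% ± 8.28 in P38i and 44.9% ± 9.34 in control, ALOX12B to 19.0% ± 6.66 in P38i and 9.02% ± 1.79 in control, and ALOXE3 to 18% ± 6.95 in P38i and 12.7% ± 10.4 in control. Of the secreted proteins listed with lacritin, PIP was covered to 100% in every P38i and control library and dermcidin (DCD), a neighbour of LACRT, to 77.8% ± 27.2 in P38i and 70.3% ± 27.7 in control.

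In the p38 pathway, 13 of 16 listed genes, MAPK14 and EZH2 among them, had no island in any library. MAP2K6, a kinase that activates p38, was covered to 78.9% ± 4.54 in P38i and 76.8% ± 10.7 in control, and MEF2C, a transcription factor phosphorylated by p38, to 15.9% ± 6.41 in P38i and 13.7% ± 7.23 in control. MAPK13, which encodes p38 delta and is named because of its values, had an island in all 4 combo libraries and in no other, with a mean of 3.27% ± 3.64 in combo, too low over the 16 libraries to be fitted.

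By Pearson's r of coverage over the 16 libraries, the gene most like each of the 8, at least 1 Mb away, was another of the 8 for 4 of them. SPX and ALOX15 were most like each other (r = 0.927), ZNF853 was most like ALOX15 (r = 0.918), and CCR9 most like LINGO4 (r = 0.819). Outside the 8, OTOP2 was most like ERICH4 on chromosome 19 (r = 0.929), which averaged 32.5% ± 26.6 in combo, 64.8% ± 11.2 in P38i, 2.27% ± 4.54 in EPZ and 12.1% ± 24.2 in control. LINGO4 was most like DTX1, a Notch pathway regulator (r = 0.895), TAC3 most like the hair follicle keratin KRT27 (r = 0.857), and LACRT most like the chemokine receptor CX3CR1 (r = 0.796). The libraries share list length, and the 8 were chosen for a shared contrast, so these values only describe likeness.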

How the data were processed

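The authors deposited 1 list of H3K27me3 islands per library, with starts and ends only. Tools named in the submitters' processing notes are SICER for islands, Bowtie2 (2.3.4.1), SAMtools (1.2), bedtools (2.28.0), Picard, cutadapt, Trim Galore and FastQC, on hg38. Their roles, order and settings were not stated. Island bounds lay on a 200 bp grid. No island was under 200 bp and no gap under 800 bp, so nearby marks are merged. Depth is unknown.

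The percent of each RefSeq gene (GRCh38) plus 2.5 kb on each side in islands was computed with Python 3.11.15, numpy 2.4.6 and pandas 2.3.3 and drawn with matplotlib 3.10.9. For 500 genes it was checked against bedtools 2.31.1 and differed by 0 points. Genes with a mean of 5 to 95% (4104; 15515 lay below and 351 above) entered 1 limma 3.58.1 fit of the 4 groups (R 4.3.3, trend and robust), with Benjamini-Hochberg adjustment over all of them and a threshold of 0.05. Where a group has no island in any library its spread is 0, which pulls down the pooled spread and can make p-values too low. The fit was tested on simulated data. EPZ is called EP7 in the sample titles.

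The members, gene lists and alternatives were chosen with earlier results of these data known. Named genes were the 8 members, neighbours within 50 kb, the most alike gene at least 1 Mb away, the genes at the threshold and listed partners with coverage. Genes without islands were added as examples afterwards.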

Additional observations from a re-analysis of the deposited data

Results flagged for a closer look

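In 9 of 32 groups of 4 libraries, of which 23 had any spread, 1 library stood apart from the other 3 by Dixon's criterion at the 95% level. That criterion flags about 1 group in 20 by chance for continuous values, a rate that does not apply to the 7 flags in which 1 library had islands and the other 3 were at 0, since any such group is flagged. These were SPX in combo replicate 1 (17.2%), TAC3 in EPZ replicate 3 (27.8%), TAC3 in control replicate 1 (26.0%), LACRT in control replicate 2 (50.6%), CCR9 in control replicate 1 (18.1%), OTOP2 in control replicate 1 (23.2%) and ALOX15 in control replicate 4 (8.74%). Control replicate 1, the control list with the most covered length, supplied 3 of these. LACRT stood apart in combo replicate 2 (33.0%, the nearest other at 58.2%) and in EPZ replicate 1 (42.8%, the nearest other at 31.8%).

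ZNF853 was called lower in the interaction of the inhibitors, by -24.5 points (limma adjusted p = 0.0212), 1 of 2 genes called lower in that test (0.0487% of those tested). With combo, EPZ and control all at 0, this value is the P38i against control difference, 24.5 points, with its sign reversed. ZNF853 was chosen for its P38i libraries, which are part of this contrast, and its other 3 groups are at 0, so the p-value may be too low. The call was made in 12 of 22 alternatives, with a limma adjusted p of 0.000865 to 0.296, and was lost with the replicate block, without limma's trend and robust options, and on leaving out combo replicate 2 or 3, any 1 EPZ replicate, control replicate 2 or the narrowest library of each group.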

How the results depend on the processing

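Calls in P38i against control (12 genes) became 6 with covered length as a covariate, 0 when only the 2 groups compared were fitted, 21 with a flank of 5 kb, 4 with lists of equal length, 21 without the filter and 7 without the narrowest library of each group, a setting chosen after seeing the data. Leaving out single libraries gave 5 to 31. Calls in the p38 main effect (5) became 3, 15, 0, 8 and 2 with the covariate, the 5 kb flank, equal lists, no filter and no narrowest libraries, 1 with a filter of 10 to 90%, 3 without flanks, 0 with windows at the gene ends, and 2 to 32 without single libraries. For combo against EPZ (0) the counts were 3 in the fit of only these groups, 1 with a flank of 1 kb and 0 to 2 without single libraries, none of them among the 8 genes.

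Combo against P38i (79) gave 35 on an arcsine square root scale, 43 in the fit of only these groups, 12 with equal lists, 31 with windows at the gene ends, 14 without the narrowest libraries and 16 to 231 without single libraries. With equal lists the split was 6 higher and 6 lower, against 3 and 76. With the covariate it was 25 higher and 43 lower. The EZH2 inhibitor main effect (678) gave 387 with the covariate (127 higher), 165 with equal lists (70 higher), 146 with windows at the gene ends, 367 without the narrowest libraries and 419 to 923 without single libraries. The interaction (2) gave 1 with the 10 to 90% filter, 4 with a flank of 1 kb, 1 without limma's trend and robust options, 0 with equal lists, 5 without the filter, 1 without the narrowest libraries and 0 to 4 without single libraries. The cause of these shifts was not tested, and equal lists test fewer genes by construction.

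Replicate numbers did not pair the samples: same-numbered libraries of different groups had correlations of -0.151 to 0.178 between their deviations from the group means, and differently numbered ones -0.204 to 0.164. With the number as a replicate block, counts were 8 for P38i against control, 4 for the p38 main effect, 0 for combo against EPZ, 45 for combo against P38i, 587 for the EZH2 inhibitor main effect and 1 for the interaction.

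In P38i against control, calls held in 26 of 28 alternatives for SPX, 25 of 28 for LINGO4, 25 of 27 for ALOX15, 22 of 23 for ZNF853, 19 of 28 for TAC3, 18 of 29 for LACRT and 16 of 29 for CCR9. OTOP2, not called there, was called in 6 of 29 alternatives, and its call in the p38 main effect held in 7 of 28. These contrasts chose the genes and the alternatives reuse their libraries, so the counts show dependence on the settings and lend the calls no support. Without flanks, LINGO4, LACRT and CCR9 were not called in P38i against control (limma adjusted p = 0.133, 0.556 and 0.162). Their differences were 31.2, 37.2 and 26.1 points in that setting, and SPX, TAC3, ZNF853, OTOP2 and ALOX15 were called. The interaction call of ZNF853 held in 12 of 22 and was lost with the replicate block (limma adjusted p = 0.0760). No difference changed sign among results called. Depth is unknown, so a missing island may be a weak one.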
